A study of Sus scrofa with 37 samples.

Results

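The genes described here encode the proteasome and the proteins that activate, inhibit or assemble it. They were chosen by symbol: every probe set of the array whose annotated gene symbol starts with PSMA, PSMB, PSMC, PSMD, PSME, PSMF or PSMG followed by a number belonged to the group, and of several probe sets for a gene the one with the highest mean over all 37 arrays was taken. This gave 45 genes, with 85 probe sets, of the 13755 genes that the annotation names. PSMC3IP came in by its name alone, as it encodes a recombination protein. PSMA1, PSMB10, PSMC3 and PSMD13 are not named by the annotation used and were not analysed here. The array measured RNA of peripheral blood mononuclear cells (PBMC), the lymphocytes and monocytes that a density gradient separates from blood, in German Landrace piglets of both sexes. All 19 pigs were sampled at weaning, 28 days postnatum (dpn), before the diets began, and these 19 arrays served as reference samples (R). From weaning the pigs were fed on wheat, barley and soybean with digestible phosphorus at 0.33% (L, low), 0.51% (M, medium) or 0.74% (H, high), and a second sampling at 63 dpn gave 6 L samples, 5 M samples and 7 H samples. Of the R samples, 6 came from pigs that later received the L diet, 6 from M pigs and 7 from H pigs, and all but M pig 8 were sampled at both ages.

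The proteasome is the main protease of the cytosol and nucleus and degrades proteins tagged with ubiquitin. Its 20S core is a stack of rings of alpha subunits (PSMA genes), which form the gate, and beta subunits (PSMB genes), of which PSMB5, PSMB6 and PSMB7 carry the catalytic sites. The 19S cap holds ATPases (PSMC genes), which unfold the substrate, and other subunits (PSMD genes), which bind and trim ubiquitin. In cells exposed to interferon gamma and in many immune cells, PSMB8, PSMB9 and PSMB10 replace PSMB5, PSMB6 and PSMB7 to form the immunoproteasome, which shapes the peptides presented by MHC class I, and PSME1 and PSME2 form the PA28 activator of the core. In the annotation of the pig assembly Sscrofa11.1, PSMB8 and PSMB9 lie on chromosome 7 interleaved with the peptide transporter genes, in the order TAP2, PSMB8, TAP1, PSMB9 and BRD2, and PSME2 and PSME1 lie on chromosome 7 as well, in the order IRF9, PSME2, EMC9, PSME1 and FITM1.

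Values are on the log2 scale after RMA, a procedure that removes background, brings all arrays to a common distribution and combines the probes of each probe set. Values of different probe sets have no common scale, so levels were compared between samples only. The median over all probe sets lay between 5.25 and 5.42 on the 37 arrays. Of the 47845 probe sets, 28086 exceeded an SD of 0.23 and a mean of 2.5 over all arrays and entered limma, which fits a linear model per probe set and moderates the variances, and a probe set was called altered at a P and a q, the P adjusted by Storey's method, of 0.05 or less. This filter kept 27 of the 45 genes: 5 of 6 alpha subunits, 5 of 7 constitutive beta subunits, all 4 immunoproteasome genes on the array, 2 of 5 ATPases of the 19S cap, 2 of 10 other 19S subunits, 2 of 3 further activators and inhibitors, 5 of 7 assembly chaperones, both tissue-restricted core subunits (PSMA8 of testis and PSMB11 of thymus) and not PSMC3IP. Genes that failed the filter were estimated in a fit without it. All 6 T cell markers on the array passed the filter, and the log2 of their summed values ran from 12.01 to 12.99 over the 37 arrays. The same sum ran from 15.19 to 15.75 for the 5 erythroid markers on the array, so the samples were not free of erythroid RNA. In bulk samples such as these, fewer cells of a type and less RNA per cell cannot be told apart.

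Among the catalytic subunits, PSMB5 was hardly measured. Its probe set with the highest mean is one designed for a mouse microRNA, with a mean of 3.75, and its other probe set had a mean of 3.46. The 69 background probe sets of the array had means from 1.44 to 9.46, with a median of 3.93. PSMB6 and PSMB7, the other constitutive catalytic subunits, had values between 9.51 and 10.39 and between 7.72 and 8.30 but varied too little to pass the filter. Of the tissue-restricted core subunits, PSMA8 had a mean of 3.08 and PSMB11 one of 6.25. Whether PBMC expressed these genes was not tested.

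Immunoproteasome RNA varied between pigs before any diet was fed. Over the 19 R arrays PSMB8 ran from 9.11 over a median of 9.99 to 11.07, and PSMB9 from 7.50 over 8.42 to 9.30. Their SD of 0.52 and 0.50 were the highest of the 45 genes and lay at percentiles 93.9 and 92.8 of the SD of all probe sets, whose median was 0.25. PSME1 and PSME2 varied less, with an SD of 0.27 and 0.29, and PSMB7 and the chaperone PSMG4 least, with 0.16 and 0.13. The median SD was 0.40 for the 4 immunoproteasome genes and 0.27 for the alpha subunits. It was 0.28 for the constitutive beta subunits and 0.20 for the 19S ATPases. The summed NK cell markers ran from 9.14 to 12.25 (log2) over the R arrays, and the summed monocyte markers from 11.41 to 13.07. The part of the cell mix in the spread of these genes was not tested.

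PSMB8 was above the R mean of 10.08 in 5 of 7 H samples, but the groups overlapped. H samples lay between 9.90 and 10.83 with a median of 10.45, L samples between 9.62 and 10.52 with a median of 9.97, and M samples at 9.57, 9.70, 10.12, 10.30 and 10.32. The difference between H and R was 0.33 on the log2 scale (SE 0.19, 95% interval -0.06 to 0.72, limma, q = 0.228). No H sample lay above the highest R sample.

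PSMB9, likewise induced by interferon gamma, showed the same kind of overlap. H samples ran from 8.01 over a median of 8.90 to 9.41, L samples from 7.52 over 8.58 to 8.87, and M samples lay at 7.33, 7.98, 8.53, 8.62 and 9.002. The difference between H and R was 0.34 (SE 0.23, 95% interval -0.12 to 0.80, limma, q = 0.275), and L and M differed from R by -0.10 and -0.16. All 8 PSMB8 probe sets and all 4 PSMB9 probe sets had a positive estimate in H against R, from 0.01 to 0.43 and from 0.14 to 0.35.

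The PA28 genes had estimates of smaller size in H against R, and their difference from PSMB8 and PSMB9 was not tested. PSME1 had a median of 9.31 in R, 9.48 in L and 9.36 in H, and PSME2 one of 8.52 in R, 8.33 in L and 8.32 in H. M samples of PSME2 lay at 8.0025, 8.05, 8.13, 8.27 and 8.30, all 5 below the R mean of 8.50 and within the R range. The difference was -0.35 (SE 0.13) with an unadjusted P of 0.0138 and a q of 0.894 in limma, so it was not called, and 5.07% of all probe sets had an unadjusted P under 0.05 in M against R. In H against R, PSME1 differed by 0.09 (95% interval -0.14 to 0.31) and PSME2 by -0.11 (95% interval -0.35 to 0.13). A further PSME1 probe set (mean 8.18) stood at -0.10 there and correlated with the chosen one at 0.273 over R. A further PSME2 probe set (mean 4.7) stood at -0.21 and correlated with the chosen one at -0.134. Both passed the filter.

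**Figure D1:**
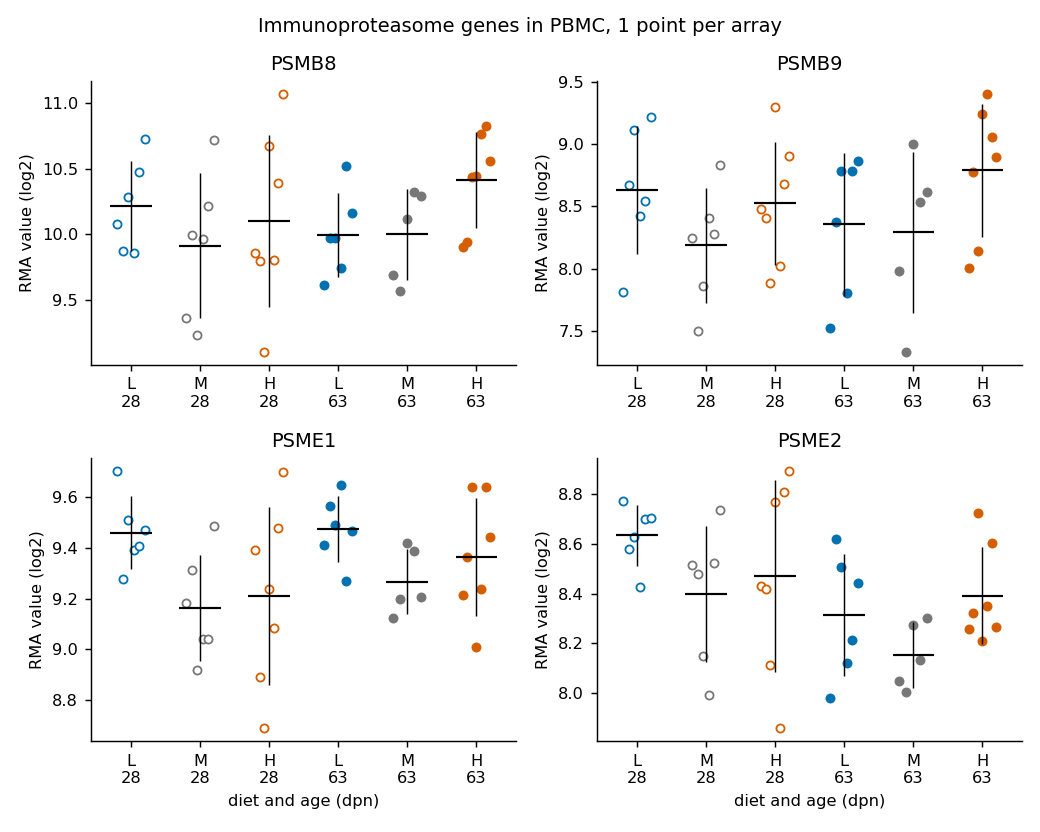
RMA values (log2) of PSMB8, PSMB9, PSME1 and PSME2 by diet and age, with 1 point per array, open at 28 dpn and filled at 63 dpn, the horizontal line at the group mean and the vertical line 1 SD to either side. The groups overlap for every gene, and the widest spread is that of PSMB8 in the H pigs at 28 dpn, from 9.11 to 11.07.

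The balance of subunit RNA was read as the difference between an inducible subunit and the constitutive subunit whose place it takes, computed within each array. The exchange of subunits in the protein complex was not measured. PSMB9 minus PSMB6 averaged -1.51 ± 0.49 (SD, n = 19) in R, -1.79 ± 0.54 (n = 6) in L, -1.67 ± 0.69 (n = 5) in M and -1.31 ± 0.66 (n = 7) in H, where only shifts between groups have a meaning. H exceeded R by 0.20 (SE 0.27, exact permutation test, two-sided p = 0.403, adjusted p = 0.805 over 6 tests). For PSMB8 minus PSMB5 the shift in H was 0.58 (SE 0.31, exact permutation test, two-sided p = 0.0959, adjusted p = 0.575), and with the other PSMB5 probe set, an alternative chosen after seeing the data, it was 0.40 (p = 0.117, exact permutation test). Both PSMB5 probe sets lay at the level of the background probe sets, so this pair cannot show the balance with PSMB5 RNA. The chosen one contributed to the shift of 0.58, with a mean of 3.85 in R and 3.60 in H. In L and M the shifts of both pairs against R lay between -0.28 and 0.13, with exact permutation p-values from 0.256 to 0.872.

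Against R, 0 of the 27 tested genes were called in L, in M or in H, where 0.0249%, 0.0178% and 2.09% of all tested probe sets were. With the pig as a fixed block, the comparison of H with R reduces to the change with age within the H pigs. That fit called 2 genes, PSMA7 and PSMC2 (0.42 and 0.47, q of 0.0489 and 0.0312, limma). It called 10.5% of all probe sets, above the share of the 27 genes. At an unadjusted P under 0.05 there were 1 gene in L, where 9.23% of all probe sets passed, 2 genes in M and 4 genes in H (limma). The 4 in H were PSMA7 (0.29, SE 0.12), PSMB3 (0.33, SE 0.13), PSMC2 (0.32, SE 0.13) and PSMD5 (0.24, SE 0.10), with q values from 0.111 to 0.139, and they made up 14.8% of the tested genes against 18.3% of all probe sets. A further PSMB3 probe set that passed the filter stood at -0.02 in H against R, and a further PSMA7 probe set at 0.31. PSMA7 is an alpha subunit of the gate, PSMB3 a beta subunit without a catalytic site, PSMC2 a 19S ATPase, and PSMD5 a chaperone of 19S assembly. The median difference of the 27 genes was 0.09 in H, -0.01 in L and -0.05 in M, where the medians of all tested probe sets were -0.03, -0.01 and 0.001.

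Between the diets at 63 dpn 0 genes and 0% of all probe sets were called in limma, by Storey's q or by Benjamini-Hochberg adjustment. At an unadjusted P under 0.05 there was 1 gene in H against L (8.57% of all probe sets), there were 5 genes in H against M (9.16%) and 0 in L against M (3.1%). The 5 were PSMB3, PSMB4 and PSMC2, higher in H, and PSMB11 and PSME4, lower in H.

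The calls came from the change between 28 and 63 dpn within the H pigs, where 3 of 27 genes were called, 11.1%, against 12.5% of all tested probe sets. The share was thus close to that of the array as a whole. All 3 were called higher, as were 7.99% of all tested probe sets. At an unadjusted P under 0.05 there were 8 genes, 29.6%, against 25.1% of all. In L and M pigs 0 genes and 0% of the probe sets were called in limma, also by Benjamini-Hochberg adjustment, with 4 genes in L (5.53% of all probe sets) and 2 genes in M (5.2%) at an unadjusted P under 0.05.

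PSMC2 was at 6.72, 6.73, 6.80, 6.86, 6.88, 6.96 and 7.27 in the H pigs at 28 dpn and at 7.07, 7.12, 7.18, 7.45, 7.49, 7.57 and 7.65 at 63 dpn. It was higher at 63 dpn in 7 of 7 H pigs, although the groups overlapped through 1 array at 28 dpn. The change was 0.47 on the log2 scale, a fold of 1.39 (SE 0.14, limma, q = 0.0199). It was higher at 63 dpn in 2 of 6 L pigs and 2 of 5 M pigs.

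PSMA7 ran from 9.28 over a median of 9.59 to 9.97 at 28 dpn and from 9.65 over 10.02 to 10.39 at 63 dpn in the H pigs and was higher in 5 of 7. The change was 0.42 (SE 0.13, limma, q = 0.0247), and a further PSMA7 probe set gave 0.38 (q = 0.0273). Another PSMA7 probe set failed the filter and correlated with the chosen one at -0.24 over R. PSMB4, a beta subunit without a catalytic site that helps the core rings pair, rose by 0.34 (SE 0.12, limma, q = 0.0409), in 6 of 7 H pigs, from 10.02 to 10.62 with a median of 10.24 at 28 dpn to 10.46 to 10.84 with a median of 10.70 at 63 dpn. Its call was lost without any 1 of 8 arrays of H pigs (q from 0.0523 to 0.0959), that of PSMA7 without the 28 dpn array of pig 3 or either array of pig 9 (q from 0.0624 to 0.0667), and that of PSMC2 with no single array left out.

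**Figure D2:**
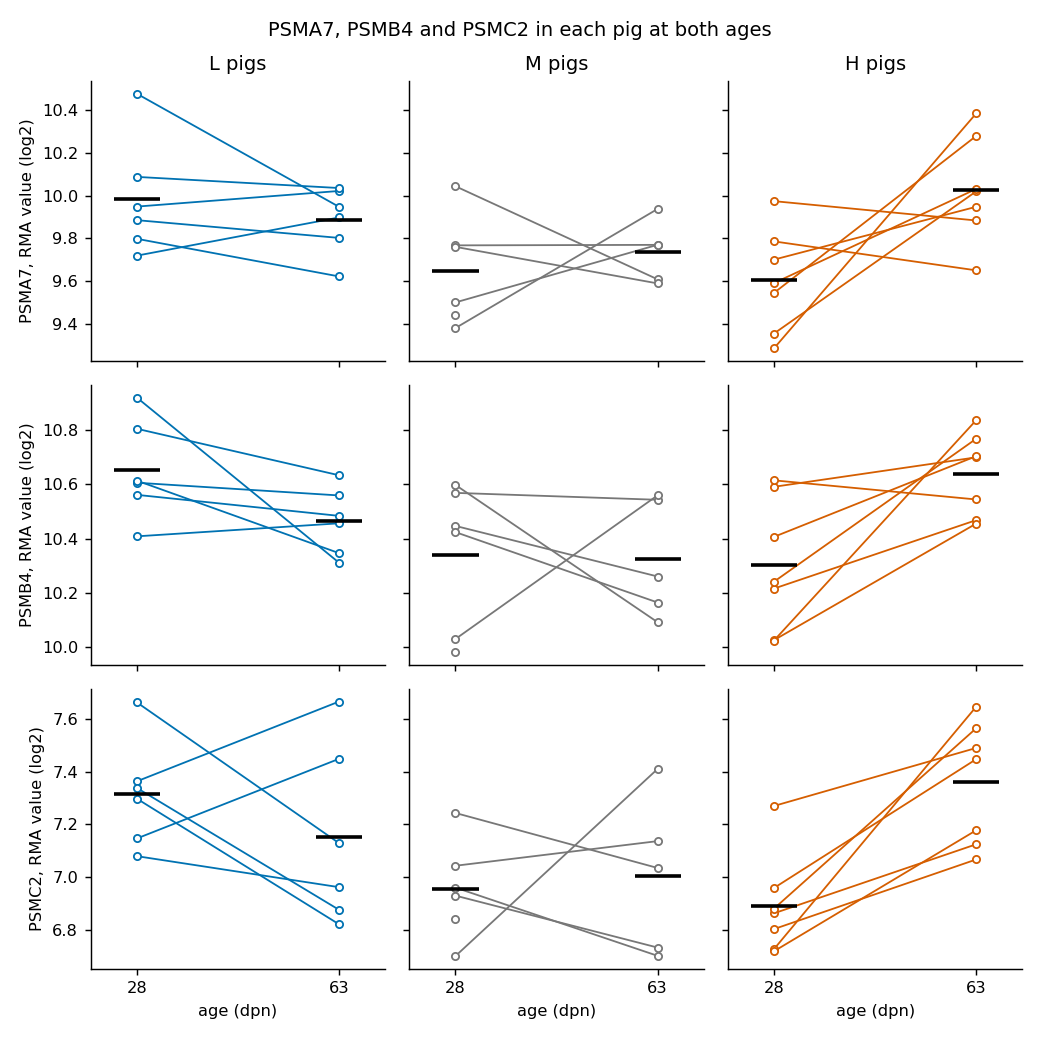
RMA values (log2) of PSMA7, PSMB4 and PSMC2 at 28 and 63 dpn, each line joining the arrays of 1 pig and each bar the group mean, with M pig 8 as a single point at 28 dpn. PSMC2 is higher at 63 dpn in all 7 H pigs, and the mean of the H pigs at 28 dpn lies below that of the L pigs for each gene.

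Before feeding, these genes were lower in the pigs of the later H and M groups than in those of the later L group. PSMC2 averaged 6.89 ± 0.19 (SD, n = 7) in H pigs and 7.31 ± 0.20 (n = 6) in L pigs at 28 dpn, and 7.36 ± 0.23 (n = 7) in H samples at 63 dpn. PSMA7 stood at 9.60 ± 0.24 (n = 7), 9.99 ± 0.27 (n = 6) and 10.03 ± 0.25 (n = 7) in the same order, and PSMB4 at 10.30 ± 0.24 (n = 7), 10.65 ± 0.18 (n = 6) and 10.64 ± 0.15 (n = 7). M pigs were at the level of the H pigs at 28 dpn, with means of 6.95 for PSMC2, 9.65 for PSMA7 and 10.34 for PSMB4, and stood at 7.00, 9.73 and 10.32 at 63 dpn. The H samples at 63 dpn thus lay at the level that L pigs had before feeding. The test among the future diet groups at 28 dpn gave q values of 0.225 to 0.235 for the 3 genes (limma). None of the 27 genes and 0% of all probe sets were called in it, also by Benjamini-Hochberg adjustment, and 8 genes had an unadjusted P under 0.05, 29.6% against 11.3% of all probe sets. These genes correlated across arrays, so they do not count as separate observations. When the change with age in H pigs was set against that in L and M pigs, 0 genes and 0% of the probe sets were called, and PSMC2 had the smallest q (0.53, SE 0.175, q = 0.0679, limma). An unadjusted P under 0.05 in this comparison was reached by 8 genes, 29.6% against 20.1% of all probe sets.

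By subunit class, the change with age in H pigs was positive for 5 of 6 alpha subunits (median 0.24), 6 of 7 constitutive beta subunits (median 0.27), 3 of 4 immunoproteasome genes (median 0.21), 4 of 5 19S ATPases (median 0.05) and 6 of 10 other 19S subunits (median 0.12). The median over all tested probe sets was -0.03. These counts took 1 probe set per gene, and probe sets of a gene did not always go the same way. For the beta subunit PSMB2 the chosen one stood at 0.35, and further ones at 0.21, -0.24 and -0.33, with none called. In the fit without the filter, PSMD2, a scaffold subunit of the 19S cap, and PSME3, the activator of nuclear proteasomes, were called in addition (0.42, q = 0.00988, and 0.30, q = 0.0262, limma), genes named here after their values were seen. Of the 45 genes 15 had an estimate below 0, among them PSMB5 (-0.44), the 19S subunit PSMD4 (-0.34, q = 0.148), PSMF1, an inhibitor of the core (-0.33, q = 0.0584), the thymic PSMB11 (-0.29, q = 0.0693) and the activator PSME4 (-0.31, q = 0.138, limma), with none called. The assembly chaperones had a median of 0.02.

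In H pigs PSMB1, a beta subunit without a catalytic site, ran from 8.48 over a median of 8.71 to 9.10 at 28 dpn and from 8.63 over 9.02 to 9.36 at 63 dpn (0.27, SE 0.13, q = 0.105, limma). The alpha subunit PSMA4 ran from 8.28 over 8.54 to 9.23 and from 8.67 over 8.92 to 9.35 (0.27, SE 0.15, q = 0.146, limma). Both overlapped between the ages and were not called, although a further PSMB1 probe set was (0.39, q = 0.0381, limma). PSMB11 ran from 6.06 over 6.45 to 6.73 at 28 dpn and from 5.76 over 6.11 to 6.26 at 63 dpn, again with overlap.

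**Figure D3:**
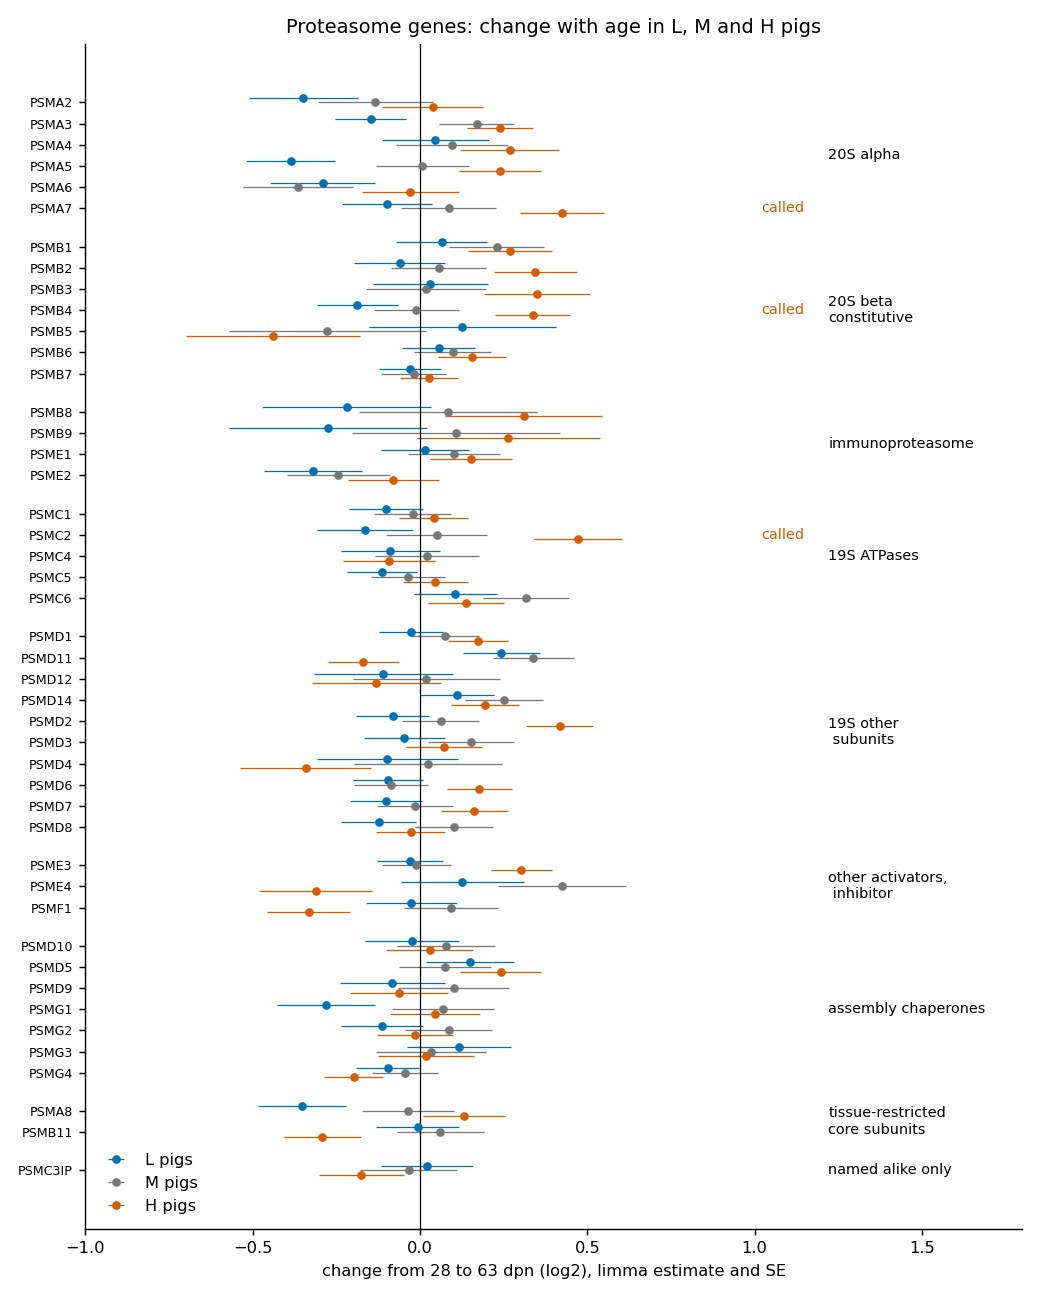
Change from 28 to 63 dpn (log2, point) with its SE (bar) for all 45 genes in L, M and H pigs, from the limma fit without the filter on low SD and mean, ordered by subunit class. The word called marks PSMA7, PSMB4 and PSMC2, called in H pigs in the fit with the filter.

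Other transcripts moved in the same H samples. Between 28 and 63 dpn 4 of 7 monocyte markers on the array were called higher in H pigs (CD14, CD163, VCAN and TYROBP, by 0.75 to 0.97), as were 3 of 5 B cell markers and 1 of 6 NK cell markers, and 1 of 3 tested erythroid markers was called lower. No T cell, neutrophil or platelet marker was called. Of all tested probe sets 12.5% were called in this comparison, and 7.99% were called higher. The log2 of the summed monocyte markers ranged from 12.04 to 12.62 in H pigs at 28 dpn and from 12.12 to 14.46 at 63 dpn, and their part in the changes above was not tested. The highest monocyte sums at 63 dpn were 14.46 in H pig 12 and 13.28 in H pig 11. These arrays also had the highest neutrophil sums (13.92 and 12.49). PSMA7, PSMB4 and PSMC2 were highest in H pig 9. Its 63 dpn array also had the highest T cell and B cell sums of the H samples (12.99 and 13.11), with a monocyte sum of 12.91. The part of the lymphocyte markers in the changes above was not tested either. Without the 63 dpn arrays of H pigs 11 and 12 the change of PSMC2 was 0.49 and that of PSMB4 0.30, with q values of 0.0544 and 0.14 (limma), and PSMA7 remained called.

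Expression of many proteasome genes rose and fell together across the R arrays. Over the 19 arrays, 1 per pig, the median Pearson correlation was 0.55 among the 12 constitutive 20S genes other than PSMB5 (66 pairs, 61 of them positive), 0.37 among the 15 genes of the 19S cap and 0.17 among the 7 assembly chaperones. The median over all pairs of probe sets on the array was -0.004. That median covers probe sets of all levels and was not taken over a set matched to these genes in level. These values are descriptions across genes, which share arrays and their normalization. Over the 63 dpn arrays, with each gene centred on its diet mean, the medians were 0.44, 0.27 and 0.12, whereas the values in R were not centred on the later diet groups.

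PSMB1 and PSMB4 followed the constitutive core most closely, with a median correlation of 0.76 with its other members. PSMB11, PSME4 and the PSMB5 probe set ran against it, with medians of -0.44, -0.32 and -0.33. PSMB11 and PSME4 did so at 63 dpn as well, with -0.41 and -0.37, and PSMF1 stood at -0.05 in R and -0.50 at 63 dpn. These genes were picked by their values.

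**Figure D4:**
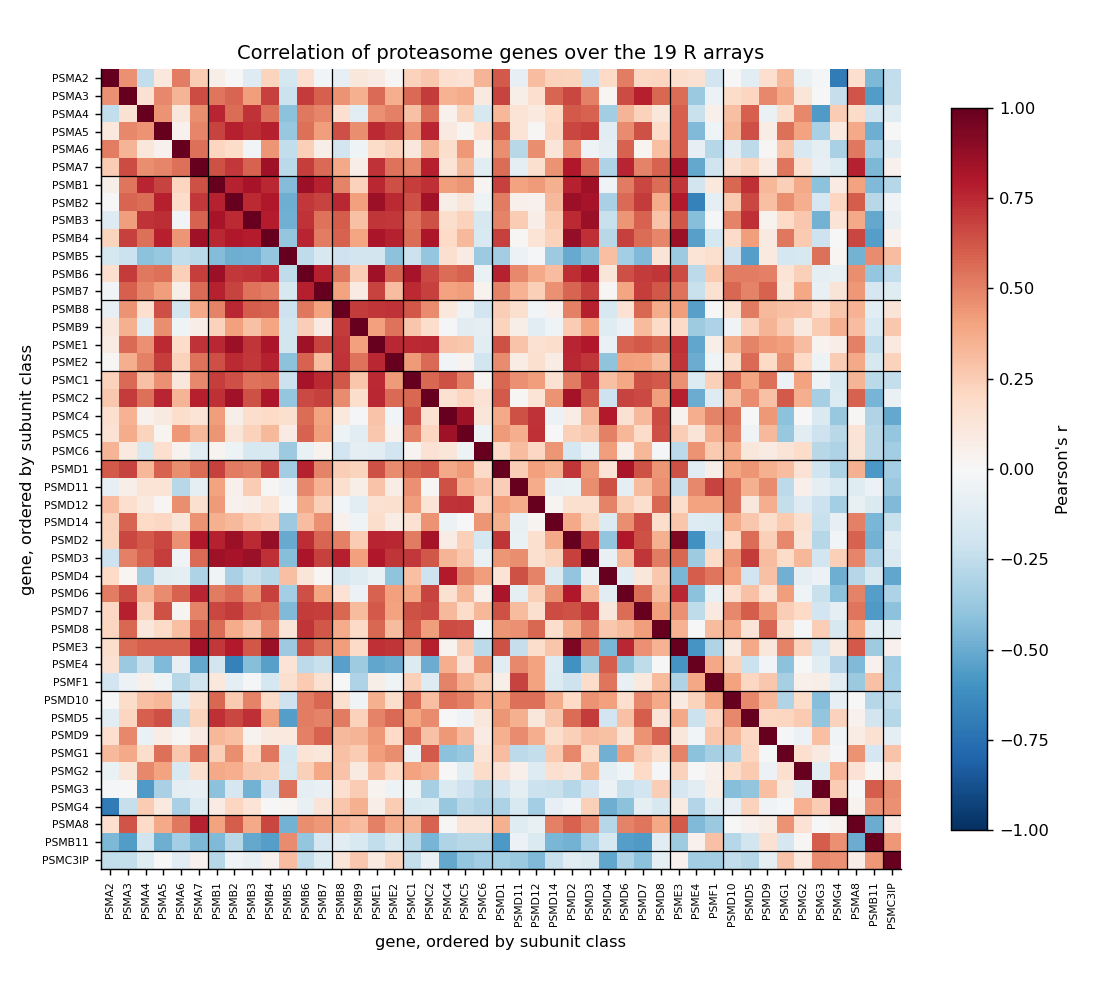
Pearson correlation of each pair of the 45 genes over the 19 R arrays, with genes ordered and divided by subunit class, red for positive and blue for negative values. The block of PSMB1 to PSMB4 and the immunoproteasome block are red, whereas PSMB5, PSME4 and PSMB11 form blue stripes across the core.

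The 4 immunoproteasome genes had a median correlation of 0.71 over R (6 pairs, from 0.41 to 0.75) and of 0.46 with the constitutive core without PSMB5. PSMB8 went with PSMB9 at r = 0.698 (rho = 0.712, permutation p = 0.0008 and 0.00078, adjusted 0.00178 and 0.00217 over 20 pairs). Without the 2 arrays farthest from the median r was 0.661. PSME1 went with PSME2 at r = 0.754 (rho = 0.795, permutation p = 0.00024 and 0.00011, adjusted 0.00108 and 0.000733), and at 0.761 without the 2 arrays. PSMB9 went with PSMB6, the subunit it replaces, at r = 0.243 (rho = 0.177, permutation p = 0.316 and 0.467, adjusted 0.332 and 0.467), and at 0.46 without the 2 arrays (permutation p = 0.0633). The difference between these correlations and the part of the cell mix in them were not tested. Each gene entered with its chosen probe set only.

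IRF1, a transcription factor of the interferon response, and the transporter TAP1 varied with the immunoproteasome genes in R. The highest of the 20 correlations was that of PSME2 with IRF1, at r = 0.844 (rho = 0.825, permutation p = 1e-05 and 2e-05, adjusted 0.0002 and 0.0003, 0.85 without the 2 arrays). The smaller p is the smallest that 100000 permutations can give. PSMB8 went with TAP1, which lies next to it, at r = 0.764 (rho = 0.765, permutation p = 0.0002 and 0.00025, adjusted 0.00108 and 0.001, 0.807 without the 2 arrays). With NLRC5, the activator of MHC class I genes, the correlations of the 4 genes were between 0.247 and 0.536. At 63 dpn, centred on the diet means, PSMB8 with PSMB9 stood at 0.755 and PSME1 with PSME2 at 0.562, while PSME2 with IRF1 was at 0.336 and PSMB8 with TAP1 at 0.352. Several other pairs were near or below 0 there, with PSME1 at -0.014 with IRF1 and -0.259 with TAP1 (0.748 and 0.69 in R), PSME2 with TAP1 at 0.052, and PSMB9 with PSME1 at -0.074. The R values were not centred on the later diet groups, so the correlations at both ages are not of the same kind. The labels name no processing batch, so no values within batches could be given.

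**Figure D5:**
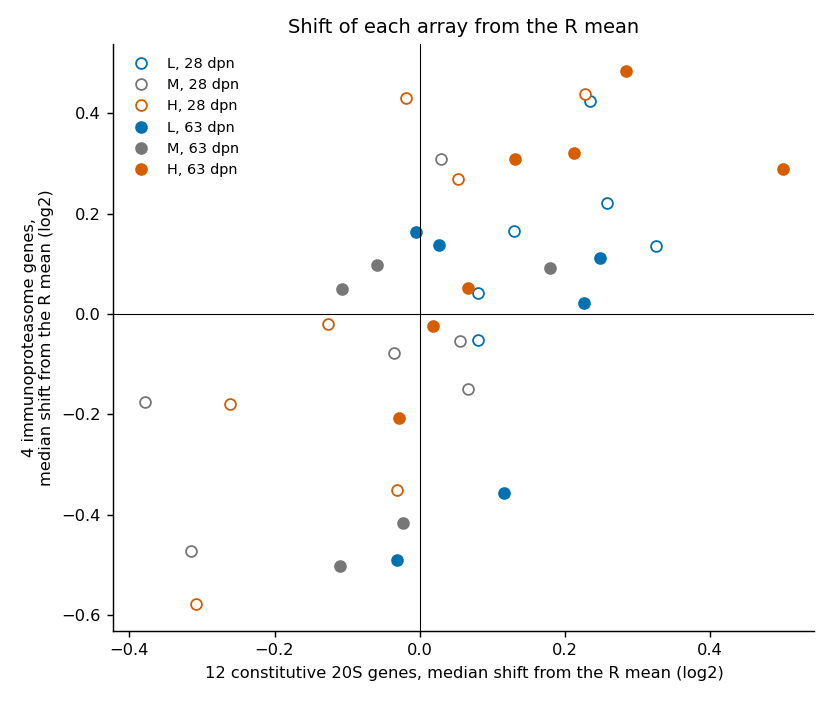
Median shift of each array from the R means (log2), over the 12 constitutive 20S genes other than PSMB5 on the x axis and over the 4 immunoproteasome genes on the y axis, with 1 point per array. H samples at 63 dpn lie between -0.03 and 0.50 on the x axis, and the point farthest to the right is H pig 9.

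Summarised per array as the median shift of the 12 constitutive 20S genes from their R means, 6 of 7 H samples were above R at 63 dpn, with 4 of 6 L and 1 of 5 M samples. The shift ran from -0.03 to 0.50 in H, from -0.03 to 0.25 in L and from -0.11 to 0.18 in M. At 28 dpn all 6 L pigs were above and 5 of 7 H pigs below the R mean, with L pigs from 0.08 to 0.33 and H pigs from -0.31 to 0.23. H pig 9 was the lowest H pig at 28 dpn and the highest at 63 dpn, and its immunoproteasome shift also moved most, from -0.58 to 0.29. These medians are descriptions of the arrays and were not tested.

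Levels of most of the genes in a pig at 28 dpn said little of its level at 63 dpn. Over the 18 pigs with both ages the median correlation of the 27 tested genes was -0.01, against -0.03 for all tested probe sets. PSMB9 had the highest (r = 0.624, rho = 0.564, permutation p = 0.00582 and 0.0154), at percentile 99.0 of all probe sets, but its q was 0.453, r without the 2 pigs farthest from the median was 0.419, and the other 3 PSMB9 probe sets lay between 0.171 and 0.387. This relation was examined after other results had been seen.

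Among 25 cofactors and regulators of the proteasome, 18 were on the array and 7 were tested, and 1 was called in H against R and 2 in the change with age in H pigs, where 2.09% and 12.5% of all probe sets were called. Those called were transcription factors that induce proteasome genes. NFE2L2 (NRF2), which responds to oxidative stress, was at 10.11 to 10.94 in H samples with a median of 10.30, against 9.33 to 10.24 with a median of 9.98 in R. It was called in H against R (0.46, SE 0.11, q = 0.0285) and in the change with age in H pigs (0.59, SE 0.13, q = 0.00558, limma). NFE2L1 (NRF1), which restores proteasome genes when proteasome activity falls short, was called in the change with age in H pigs only (0.52, SE 0.15, q = 0.0168, limma) and in H against R had a q of 0.0512. In H against R it was called without the sex term and with median centring (q of 0.0452 and 0.0406, limma). Those settings called 2.43% and 3.14% of all probe sets. It was also called without any 1 of 7 arrays, and with the pig as a fixed block (q = 0.0292, limma), which tests the change within H pigs. In all, 10 of 44 settings called it. Its call in the change with age was lost without the 28 dpn array of H pig 3 or 9 (q from 0.0514 to 0.0522). The difference of these changes between H pigs and the L and M pigs was not called for either gene, but for NFE2L2 it was without any 1 of 8 arrays (q from 0.0301 to 0.0489).

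Of 20 genes of interferon signalling, 18 were on the array and 15 were tested, with 2 called higher in H against R, where 2.09% of all probe sets were called. IFNGR1, a chain of the receptor for interferon gamma, ranged from 9.61 to 11.85 in H samples with a median of 10.11, and from 8.84 to 10.05 with a median of 9.68 in R, a difference of 0.71 (SE 0.18, limma, q = 0.0292). IFNAR1, of the receptor for type I interferons, differed by 0.50 (SE 0.14, limma, q = 0.0386). Both were also called in the change with age in H pigs (0.92 and 0.59, q of 0.00655 and 0.0163, limma). The calls of NFE2L2, IFNGR1 and IFNAR1 in H against R were lost without the 63 dpn array of H pig 11 (q of 0.0649, 0.0685 and 0.0901) or H pig 12 (q of 0.137, 0.143 and 0.19), and that of IFNAR1 also without any 1 of 7 other arrays (q from 0.0522 to 0.0646).

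ISG15, an interferon-induced relative of ubiquitin, was called lower at 63 dpn over the diets, where 1.09% of all probe sets were called and 0 of the 27 proteasome genes, with 3 of these at an unadjusted P under 0.05 (13.4% of all probe sets). It averaged 10.00 ± 0.80 (SD, n = 19) in R, 8.47 ± 0.37 (n = 6) in L, 8.98 ± 0.21 (n = 5) in M and 9.48 ± 1.23 (n = 7) in H, a change of -1.003 (SE 0.25, limma, q = 0.0296). The call was lost without any 1 of 4 arrays (q from 0.0516 to 0.0562). Of 12 genes of class I antigen processing, 8 were on the array and 5 were tested, with 0 called. TAP1 was at 9.30 to 10.87 in H and 9.01 to 10.17 in R, and TAPBP, which holds class I molecules at the transporter, at 9.36 to 10.22 and 9.07 to 10.25, with differences of 0.15 and 0.16 (q of 0.397 and 0.38, limma).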

How the data were processed

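RNA of PBMC was hybridised to the porcine Snowball array (37 arrays, 19 pigs). The scans were read with GCOS 1.1.1, by the submitters' processing notes, and the deposited values are log2 values that the authors obtained by RMA. Diet, age, sex and pig number came from the labels, and R from the study's methods. Genes were named through the array annotation (26426 probe sets with 1 symbol, 21419 with none). The members and gene lists were chosen with earlier results of these data known.

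Without 123 control probe sets and with the filters of the study, 28086 probe sets were fitted in R 4.3.3 with limma 3.58.1 (lmFit, eBayes), with dietary group (R, L, M, H) and sex, or diet by age and sex. The study's sire term was left out, as the labels used here give no sire, and litters were not modelled. P values were turned into Storey's q values per comparison, and q in the text is this adjusted P. The scripts were tested on simulated data. The number of arrays limits the precision.

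Named were PSMB5 to PSMB9, PSME1, PSME2, every called member, the 6 other members with the smallest P between H and R, and of each further list up to 4 called genes or else the 2 with the smallest such P. The members so named were, besides those above, PSMB1, PSMA4, PSMB11 and PSMF1. Other names were chosen after values were seen.

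Pair differences were tested by exact permutation, with Benjamini-Hochberg adjustment over 6 tests (PSMB10 was not on the array by name), and correlations with 100000 permutations, adjusted over 20 of 33 listed pairs. The other PSMB5 probe set, the correlations at 63 dpn, the array shifts and the correlation between ages were added after seeing the data.

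Arrays with the same pig number come from the same pig by the labels, so the numbers pair the samples. Within pigs, deviations from the group means correlated at -0.162 to 0.235, with 8 of 18 pigs over 0.1, and the common correlation was -0.00581. The study's model has no pig term, so the pig entered as a block only as an alternative. Other alternatives were no filter, Benjamini-Hochberg adjustment, no sex term, median centring of arrays, all probe sets of a gene and leaving out arrays.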

Additional observations from a re-analysis of the deposited data

Results flagged for a closer look

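Among 138 combinations of a named gene and a group, 6 held an array far from the others of its group by Dixon's criterion, and chance alone flags about 1 in 20 groups. The 63 dpn array of M pig 13 was involved in 3 of them: it was the highest M sample for PSMB3 (7.95, next 7.62) and for PSMA4 (9.01, next 8.72), and the lowest for PSMF1 (12.49, next 12.93). H pig 18 was the lowest H sample at 63 dpn for PSMB11 (5.76, next 6.07). For IFNAR1, L pig 17 was the lowest L sample at 28 dpn (9.24, next 9.53) and L pig 10 the highest at 63 dpn (9.89, next 9.53). The cause was not tested.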

How the results depend on the processing

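With the pig as a fixed block (replicate block), H against R and the change with age in H pigs are the same comparison. It called 2 genes, PSMA7 (0.42, q = 0.0489) and PSMC2 (0.47, q = 0.0312, limma), and 10.5% of all probe sets. Without the block 0 genes were called in H against R, with 2.09% of all probe sets. In the change with age 3 genes were called without it, with 12.5% of all probe sets. With the pig as a random block no count of called proteasome genes changed. In the change with age in H pigs, 5 genes were called without the filter (9.77% of all probe sets), 1 without the 63 dpn arrays of H pigs 11 and 12 (3.14%), and 6 probe sets when all probe sets of the genes were counted, where there were 3. Leaving out single arrays gave 1 to 5 (1 without the 28 dpn arrays of H pigs 3 or 9 or the 63 dpn array of H pig 9, and 5 without the 63 dpn array of H pig 3, with 4.33% and 17.1% of all probe sets called at the least and the most of these). For the change in H pigs against that in L and M pigs it gave 0 to 3, with calls only without the arrays of H pig 12 or M pig 13 at 28 dpn or of H pig 3, L pig 10 or M pig 13 at 63 dpn, where 4.63% to 7.93% of all probe sets were called. The other 435 counts without an array and 91 counts under other settings stayed within 1.5 times. Benjamini-Hochberg adjustment and the fixed block each ended the call of PSMB4 (q of 0.0766 and 0.0657), and that of IFNAR1 in H against R was lost without the filter and by Benjamini-Hochberg adjustment (q of 0.0504 and 0.0608). No pair difference passed the threshold under any of its alternatives. Of the correlations, PSMB9 with TAP1 lost the threshold without the 2 arrays farthest from the median (r = 0.468, permutation p = 0.0583) and PSMB9 with PSME1 reached it (r = 0.547, permutation p = 0.0233). The limits are 5 to 7 pigs per diet, R samples shared by all comparisons against R, and diet and age that cannot be told apart there.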
